A study of Mus musculus with 15 samples.

Results

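Tumors of the antigenic melanoma line D3UV2 (called UV2 below) taken under anti-PD-1 were set against tumors of the line D4M.3A.3 (parental) taken under triple therapy. The comparison rests on 6 of the series' 15 bulk RNA libraries, 3 UV2 anti-PD-1 and 3 parental triple therapy, chosen by their labels and not by any measured value, and it runs across all genes of the deposited table. All hosts were female C57BL/6 mice aged 8 weeks that had received 1000000 melanoma cells per flank, and the tumor of the left flank was the treated one. Antibody and the topical agent were given on days 8, 10 and 12 and the laser on days 8 and 12, before harvest on day 13. The UV2 line carries putative neoantigens induced by UVB light, and its mice in this group received anti-PD-1 antibody. For the parental group the labels disagree. The sample characteristics give anti-PD-1 together with ablative fractional photothermolysis and imiquimod, whereas the treatment protocol pairs laser and imiquimod with isotype antibody, and which antibody those mice received is unknown. The 3 parental isotype and 3 UV2 isotype libraries, from tumors under control antibody, are given beside the comparison. Line and therapy differ together between the compared groups and cannot be told apart in any value below. Whether replicate libraries stem from different mice is not labelled, and p-values therefore measure only the variation among these libraries, which may be technical.

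PD-1 is an inhibitory receptor on activated T cells, and antibodies that block it release T cells that already recognise tumor antigen. CD8 T cells see antigen on MHC class I, CD4 T cells see it on MHC class II, and dendritic cells carry it to the lymph node and provide the costimulation that T cells need. Imiquimod activates the receptor Tlr7, and ablative fractional photothermolysis removes small columns of skin, so that keratinocytes at the edge of each column take up the wound program marked by keratins 6 and 16.

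Expression is given in TPM (transcript abundance scaled for transcript length, with a sum of 1000000 in each library), in the order of replicates 1, 2 and 3. Differences are UV2 anti-PD-1 minus triple therapy on the log2(TPM + 1) scale with their standard error (SE) from limma, n = 3 per group, and this scale understates the change of genes with low values. A gene is called where the limma p (two-sided), adjusted over all 13592 genes tested, lies under 0.05. In the 6 libraries 12570 to 13993 genes reached 1 TPM, and the correlation between libraries across genes was 0.857 to 0.978. Its 4 lowest values all involved triple therapy replicate 1, whose most abundant transcript was Krt14. The melanoma content could not be read from pigment genes: Sox10 and Mlana did not reach the 1 TPM filter, and Tyr lay at 3.35, 2.94 and 4.57 TPM in the UV2 anti-PD-1 libraries and 3.02, 2.50 and 2.27 TPM in the triple therapy libraries. In bulk tissue fewer cells of a type and less RNA per cell cannot be told apart.

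In all, 553 genes were called, which is 4.07% of those tested. Of these, 312 were higher in UV2 anti-PD-1 (2.3% of genes tested) and 241 were lower (1.77%), and 122 differed by at least 2 on the log2 scale. Groups that did not overlap were far commoner: for 11.5% of genes tested all 3 UV2 anti-PD-1 values lay above all 3 triple therapy values, and for 32.8% all 3 lay below. At an unadjusted p under 0.05 the shares were 9.64% higher and 31.2% lower. The median difference of all genes was -0.32, so the deposited scale leans towards lower values in UV2 anti-PD-1. After median-of-ratios scaling this median was -0.02, and the split of calls moved from 312 higher and 241 lower to 910 higher and 411 lower. With the epidermal and muscle lists removed and the rest rescaled it was 330 higher and 413 lower. The number of calls also turned on single libraries. It was 1974, 156 and 27 without UV2 anti-PD-1 replicates 1, 2 and 3, and 1118, 129 and 30 without triple therapy replicates 1, 2 and 3. Only 20 genes kept their call in all 6 of these fits, and every other gene named below as called lost its call in at least 1 of them.

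**Figure D1:**
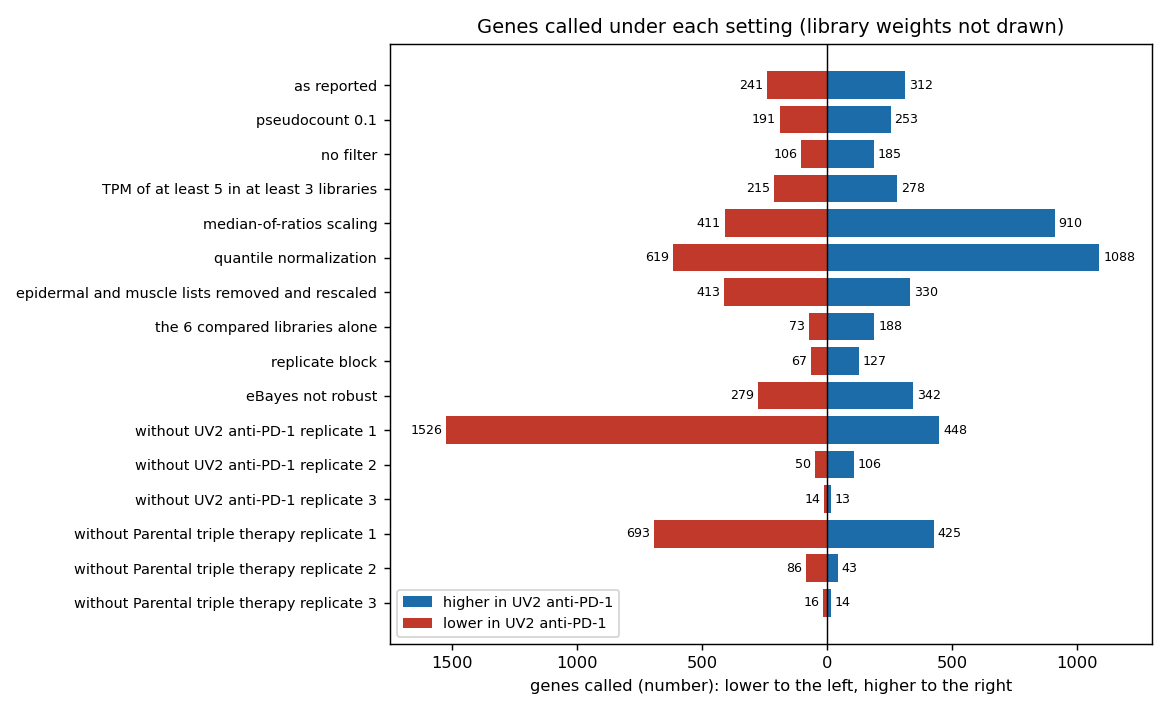
Number of genes called higher and lower in UV2 anti-PD-1 than in parental triple therapy (horizontal axis, genes) under each way of processing the values (vertical axis). The count was 553 as reported, 27 without UV2 anti-PD-1 replicate 3, 30 without triple therapy replicate 3 and 1321 after median-of-ratios scaling.

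T cell genes had the largest share called higher among the 52 gene lists described. Of the 20 T cell genes tested, 14 were called higher and none lower, 70% against 2.3% of all genes. The list median was 2.50 against -0.32 for all genes. Cd3d (ENSMUSG00000032094.8, GRCm38 chromosome 9, 44981786 to 44987339, plus strand), a signalling chain of the T cell receptor complex, lay at 62.8, 51.4 and 80.04 TPM in UV2 anti-PD-1 and 4.57, 4.11 and 7.39 TPM in triple therapy. Its difference was 3.38 ± 0.59 (adjusted p = 0.0202), and every UV2 anti-PD-1 library stood far above every triple therapy library. The other receptor chains followed, with differences of 2.65 ± 0.58 for Cd3e, 3.07 ± 0.61 for Cd3g and 2.54 ± 0.47 for Cd247. The CD8 coreceptor was higher in both of its chains. Cd8b1 lay at 97.3, 70.6 and 65.5 TPM against 5.02, 7.26 and 10.4 TPM, a difference of 3.23 ± 0.67 (adjusted p = 0.0305), and Cd8a differed by 2.57 ± 0.64 (adjusted p = 0.0463). Cd4, the coreceptor for class II, lay at 12.1, 11.8 and 10.1 TPM against 12.3, 3.13 and 6.41 TPM. Its groups overlapped, because triple therapy replicate 1 reached the UV2 anti-PD-1 values, and the difference of 0.73 ± 0.52 was not called (adjusted p = 0.289). Kinases and adaptors that carry the receptor signal were called, with 2.60 ± 0.49 for Lck, 2.52 ± 0.50 for Zap70 and 2.78 ± 0.50 for Lat.

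Not every T cell gene moved this way. Tcf7, a transcription factor of naive and stem-like T cells that is also made outside the lineage, lay at 29.6, 15.97 and 14.7 TPM in UV2 anti-PD-1 and 10.97, 46.9 and 37.2 TPM in triple therapy, with a difference of -0.48 ± 0.48 (adjusted p = 0.455). Il7r, the receptor chain for the survival cytokine IL-7, lay at 16.8, 11.8 and 12.2 against 16.6, 9.76 and 9.13 TPM and also overlapped. The summed level of the T cell list was 562 to 806 TPM in UV2 anti-PD-1 and 110 to 146 TPM in triple therapy. It was 141 to 523 TPM in the UV2 isotype libraries and 107 to 246 TPM in the parental isotype libraries, so the triple therapy libraries lay inside the parental isotype range while the UV2 anti-PD-1 libraries lay above the UV2 isotype range. The count of 14 called T cell genes fell to 8 without UV2 anti-PD-1 replicate 2, to 4 without triple therapy replicate 2, and to 0 without UV2 anti-PD-1 replicate 3 or without triple therapy replicate 3. The list median stayed between 2.33 and 2.62 in all 6 of these fits.

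Inhibitory receptors of activated and exhausted T cells were higher as well. Of 16 tested genes 7 were called higher and none lower, 43.8% against 2.3% of all genes. Lag3 (ENSMUSG00000030124.2, GRCm38 chromosome 6, 124904361 to 124911705, minus strand), an inhibitory receptor that binds class II, lay at 84.05, 61.04 and 78.8 TPM in UV2 anti-PD-1 and 4.41, 6.87 and 6.74 TPM in triple therapy. It differed by 3.44 ± 0.51 (adjusted p = 0.00977). Ctla4, which competes for the costimulatory ligands Cd80 and Cd86, lay at 16.98, 13.5 and 16.8 against 0.54, 2.06 and 0.97 TPM and differed by 2.99 ± 0.44 (adjusted p = 0.00959). Both kept their call whichever of the 6 libraries was left out. Pdcd1 encodes PD-1 itself, the target of the antibody that the UV2 mice had received. It lay at 61.3, 35.7 and 34.4 TPM against 2.83, 4.60 and 6.75 TPM, a difference of 2.98 ± 0.65 (adjusted p = 0.0333). Tigit (3.37 ± 0.55), Tox (2.32 ± 0.50), Cd160 (1.58 ± 0.34) and Btla (1.28 ± 0.32) completed the called members, Tox being a transcription factor tied to T cell exhaustion.

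The ligand and a further receptor did not share this difference. Cd274, which encodes the PD-1 ligand PD-L1, lay at 68.3, 31.2 and 45.6 TPM in UV2 anti-PD-1 and 40.1, 67.9 and 55.2 TPM in triple therapy, with a difference of -0.21 ± 0.42 (adjusted p = 0.723). Havcr2, which encodes Tim-3 on T cells and on myeloid cells, lay at 48.9, 25.1 and 30.2 against 24.6, 21.4 and 26.5 TPM and overlapped. The 7 calls among inhibitory receptors fell to 2 without UV2 anti-PD-1 replicate 3 and to 3 without UV2 anti-PD-1 replicate 2 or triple therapy replicate 2 or 3.

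Costimulatory and regulatory T cell genes were higher beside them. Tnfrsf4, which encodes the costimulatory receptor OX40, lay at 27.4, 23.6 and 39.7 TPM against 3.69, 4.15 and 2.68 TPM and differed by 2.77 ± 0.39 (adjusted p = 0.00959), a call kept in all 6 leave-one-out fits. In the costimulation list 4 of 10 tested genes were called, all higher, 40% against 2.3% of all genes. Among them were Cd40 (1.88 ± 0.35) and Cd86 (1.04 ± 0.25), which antigen-presenting cells carry. In the regulatory T cell list 5 of 8 were called, all higher, 62.5% against the same 2.3%. Foxp3, the transcription factor that defines these cells, lay at 5.27, 3.53 and 3.72 TPM against 1.15, 1.10 and 0.84 TPM and differed by 1.34 ± 0.34 (adjusted p = 0.0471). Ccr8, a chemokine receptor of tumor regulatory T cells, lay at 8.13, 2.65 and 3.67 TPM against 0, 0.41 and 0.22 TPM. Il10, an immunosuppressive cytokine, differed by 1.64 ± 0.35. Ctla4 and Tnfrsf18 stand in this list and in those above. The 5 regulatory T cell calls and the 4 costimulation calls each fell to 1 without UV2 anti-PD-1 replicate 3, triple therapy replicate 2 or triple therapy replicate 3, and to 2 without UV2 anti-PD-1 replicate 2. With the replicate number as a block they fell to 1 and 2.

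**Figure D2:**
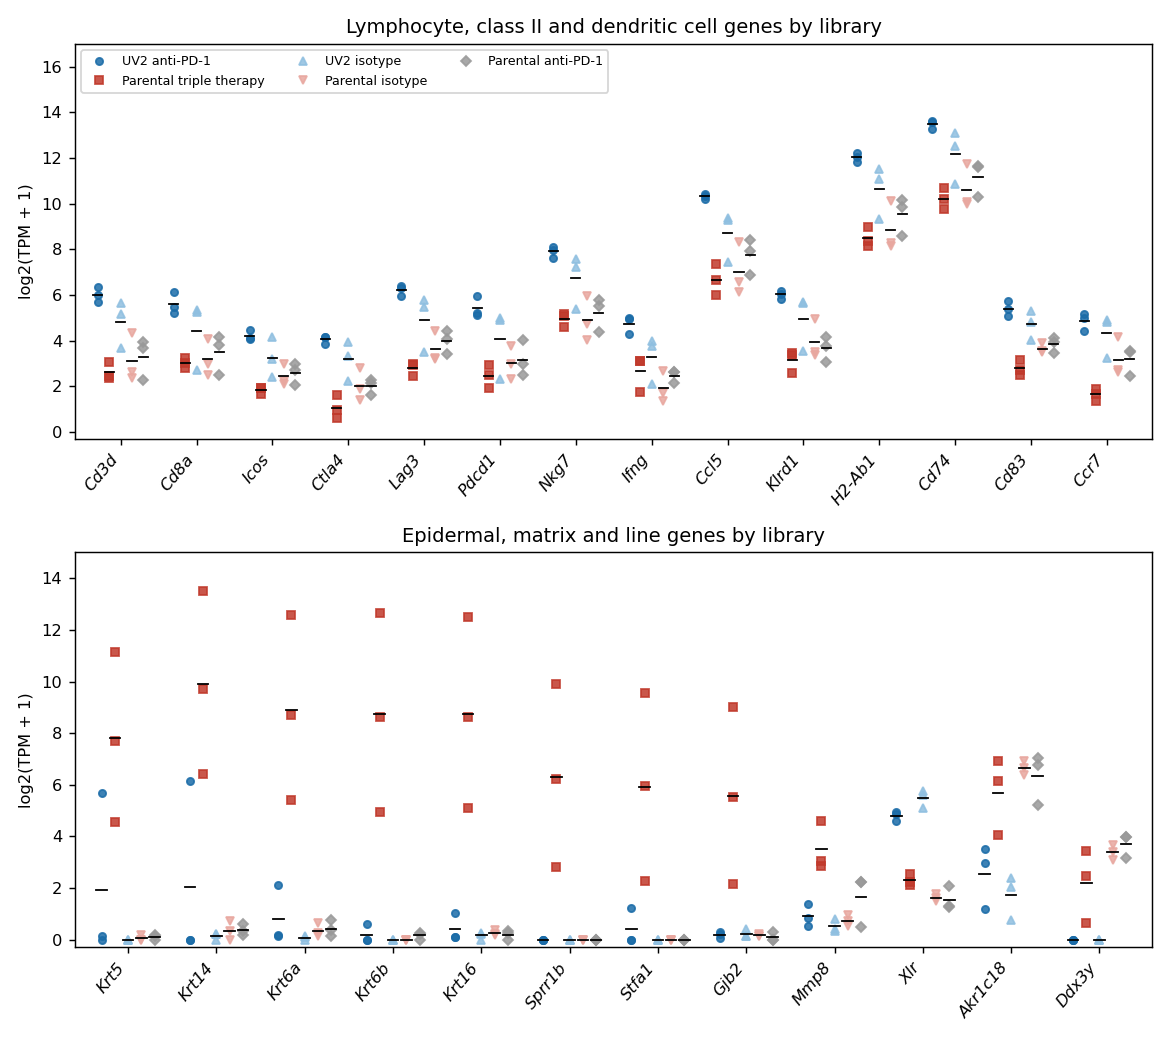
Level of named genes (vertical axis, log2(TPM + 1)) in each of the 15 libraries, with 1 point per library. For Cd3d the UV2 anti-PD-1 points lie at 62.8, 51.4 and 80.04 TPM and the triple therapy points at 4.57, 4.11 and 7.39 TPM, while Krt14 runs from 0 to 69.5 TPM and from 85.7 to 11620 TPM.

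Of 18 cytotoxic effector genes tested, 6 were called higher and none lower, 33.3% against 2.3% of all genes. The count fell to 0 without replicate 3 of either group and to 1 without triple therapy replicate 2. Ccl5, a chemokine made by effector T and NK cells, lay at 1390.0, 1297 and 1189 TPM in UV2 anti-PD-1 and 63.4, 163 and 101 TPM in triple therapy and differed by 3.65 ± 0.61 (adjusted p = 0.0173). Nkg7, a granule membrane protein, lay at 276, 199 and 254 TPM against 23.6, 35.4 and 33.2 TPM and differed by 2.95 ± 0.57 (adjusted p = 0.0277). Ifng, the interferon that T and NK cells release, lay at 29.5, 18.8 and 30.9 TPM against 2.42, 7.71 and 7.66 TPM. Its difference of 2.08 ± 0.51 passed the test (adjusted p = 0.0437), and its groups did not overlap.

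The killing molecules themselves did not pass. Gzmb, the main serine protease of cytotoxic granules, lay at 161, 78.8 and 167 TPM against 21.03, 65.2 and 61.1 TPM, with a difference of 1.53 ± 0.57 (adjusted p = 0.0765). Prf1, the pore-forming perforin, lay at 65.5, 23.7 and 28.7 TPM against 5.56, 14.4 and 16.9 TPM, with 1.58 ± 0.54 (adjusted p = 0.0686). For both genes the groups did not overlap, and triple therapy replicate 1 was the lowest library. A cluster of related granzymes took another course. Gzmd lay at 8.43, 16.2 and 8.49 TPM against 5.49, 59.4 and 49.5 TPM, and Gzmg lay at 5.25, 10.6 and 1.25 TPM against 3.28, 55.4 and 44.8 TPM. In both, triple therapy replicates 2 and 3 held the highest values of the 6 libraries and replicate 1 did not, and neither difference was called (adjusted p = 0.485 and 0.287). These granzymes are near-identical copies, and how reads were divided among them is uncertain.

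NK cell genes were also higher, with 6 of 16 tested genes called, 37.5% against 2.3% of all genes, none lower, and a median of 1.61. Klrd1, the CD94 chain of NK receptors, lay at 64.8, 56.4 and 72.5 TPM in UV2 anti-PD-1 and 5.03, 9.31 and 10.1 TPM in triple therapy and differed by 2.89 ± 0.55 (adjusted p = 0.0277). Klre1 differed by 2.96 ± 0.61 and Klrk1, the activating receptor NKG2D, by 2.46 ± 0.47. Ncr1, the receptor most specific to NK cells in this list, lay at 6.16, 4.14 and 9.61 TPM against 0.54, 2.10 and 2.95 TPM, and its difference of 1.46 ± 0.49 was not called (adjusted p = 0.0668). Several called genes of this list, Klrd1, Klrk1 and Il2rb among them, are also made by activated CD8 T cells. The 6 calls fell to 2 without UV2 anti-PD-1 replicate 2 and to 0 without UV2 anti-PD-1 replicate 3, triple therapy replicate 2 or triple therapy replicate 3.

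MHC class II carried some of the highest levels in the whole comparison. Of 11 class II genes tested, 7 were called higher and none lower, 63.6% against 2.3% of all genes, with a median of 2.15. H2-Ab1 (ENSMUSG00000073421.6, GRCm38 chromosome 17, 34257689 to 34269419, plus strand), the beta chain of I-A, lay at 4299, 3668 and 4766 TPM in UV2 anti-PD-1 and 282, 333 and 509 TPM in triple therapy. It differed by 3.53 ± 0.61 (adjusted p = 0.0199). Its partner H2-Aa differed by 3.36 ± 0.60, and H2-Eb1, the beta chain of I-E, by 3.60 ± 0.63. Cd74, the invariant chain that guides class II through the cell, lay at 12232, 9997 and 12617 TPM against 884, 1168 and 1675 TPM, and it was the most abundant transcript of UV2 anti-PD-1 replicates 1 and 2. The editors that load peptide were called too, with 2.15 ± 0.42 for H2-DMa and 2.25 ± 0.48 for H2-DMb1. Ciita, the transactivator of class II genes, lay at 40.2, 13.2 and 16.7 TPM against 8.33, 5.99 and 15.7 TPM. The groups overlapped, because UV2 anti-PD-1 replicate 2 fell below the highest triple therapy library, and its difference of 1.08 ± 0.51 was not called (adjusted p = 0.127). The 7 class II calls fell to 3 without triple therapy replicate 2 and to 0 without replicate 3 of either group, while the median stayed between 1.95 and 2.38.

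Dendritic cell genes gave 8 calls of 21 tested, all higher, 38.1% against 2.3% of all genes, and a median of 1.26. Cd83, a marker of mature dendritic cells, lay at 53, 40.97 and 32.7 TPM in UV2 anti-PD-1 and 4.71, 5.53 and 7.79 TPM in triple therapy and differed by 2.62 ± 0.31 (adjusted p = 0.00453). Il12b, a subunit of the cytokine IL-12 that drives type 1 responses, lay at 6.72, 3.83 and 3.75 TPM against 0.27, 0.36 and 0.32 TPM and differed by 2.09 ± 0.30 (adjusted p = 0.00959). Both kept the call in all 6 leave-one-out fits. Ccr7, the receptor that guides mature dendritic cells and naive T cells to lymph nodes, lay at 34.8, 30.8 and 20.8 TPM against 2.21, 2.72 and 1.58 TPM and differed by 3.22 ± 0.50 (adjusted p = 0.0113). Genes of the cross-presenting subset were called too: Xcr1 lay at 4.13, 2.19 and 4.60 TPM against 0.57, 0.36 and 1.31 TPM, and Batf3 at 40.7, 42.9 and 80.8 TPM against 6.24, 8.39 and 11.8 TPM. Fscn1, an actin bundler of mature dendritic cells that other cells also make, was not called, at 151, 152 and 79.5 TPM against 166, 128 and 127 TPM. Flt3, the receptor for their growth factor, lay at 5.19, 3.94 and 2.33 TPM against 1.19, 0.50 and 1.11 TPM and missed the threshold (adjusted p = 0.0561). The dendritic cell count ranged from 2 calls without triple therapy replicate 3 to 9 without triple therapy replicate 1.

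A list of T cell-attracting chemokines, related chemokines and their receptors gave 7 calls of 13 genes tested, all higher. That is 53.8% against 2.3% of all genes, and the median was 1.54. The called chemokines were Ccl5, Cxcl16 and Xcl1 and the called receptors Cxcr3, Cxcr6, Ccr7 and Xcr1. The count fell to 1 without UV2 anti-PD-1 replicate 3, to 2 without triple therapy replicate 2 and to 0 without triple therapy replicate 3. Cxcr6, a receptor of tissue-resident effector T cells, lay at 80.9, 57.5 and 45.7 TPM against 8.66, 8.40 and 12.4 TPM and differed by 2.51 ± 0.58 (adjusted p = 0.0383), and its ligand Cxcl16 differed by 1.23 ± 0.28 (adjusted p = 0.0367). Xcl1, which attracts cross-presenting dendritic cells through Xcr1, differed by 1.65 ± 0.39. The interferon-induced ligands of Cxcr3 did not pass. Cxcl9 lay at 319, 160.1 and 545 TPM against 37.6, 184 and 160.2 TPM, and UV2 anti-PD-1 replicate 2 fell below triple therapy replicate 2 (difference 1.54 ± 0.57, adjusted p = 0.076). Cxcl10 overlapped in the same way, at 705, 263 and 901 TPM against 94.1, 326 and 246 TPM. Among 14 monocyte chemokine genes only Ccl4 was called (2.06 ± 0.52, adjusted p = 0.0463), 7.14% against 2.3% of all genes. Ccl4 is also a product of activated T cells.

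**Figure D3:**
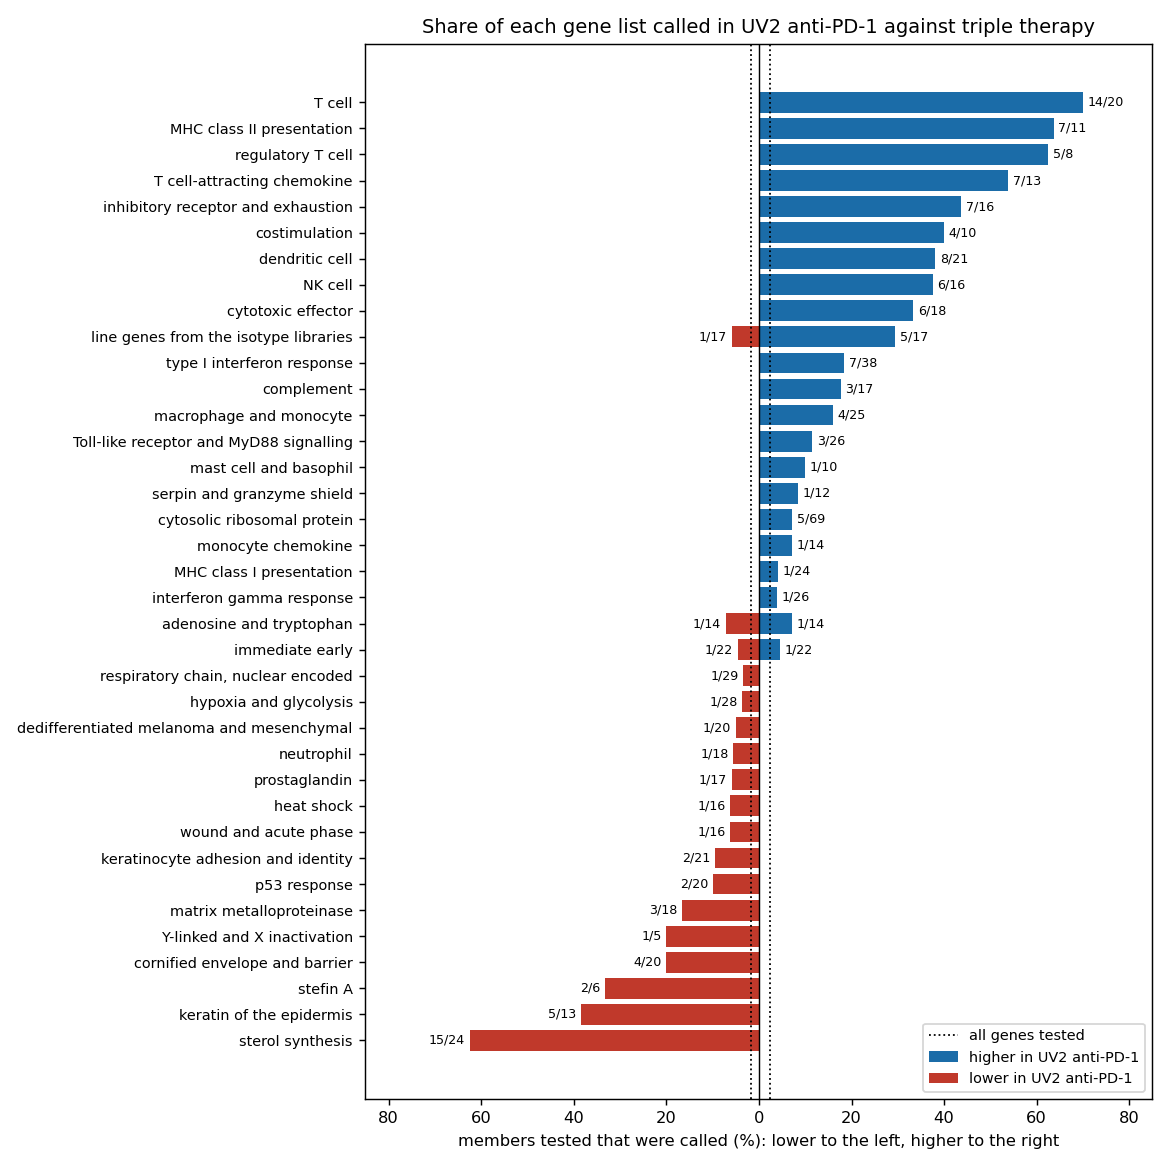
Members called higher and lower in UV2 anti-PD-1 (horizontal axis, percent of members tested) for each gene list (vertical axis). The T cell list holds 14 of 20 called higher, class II presentation 7 of 11, and sterol synthesis 15 of 24 called lower.

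Of 26 genes that interferon gamma induces 1 was called, higher, which is 3.85% against 2.3% of all genes. Their median was 0.72 against -0.32 for all genes, 23 of the 26 differences lay above 0 against 30% of all genes, and 5 of the 26 were higher without overlap against 11.5%. Gbp2, a guanylate-binding protein of the cell's own defence, lay at 1262, 475 and 1144 TPM in UV2 anti-PD-1 and 305, 1118 and 856 TPM in triple therapy and overlapped, with a difference of 0.41 ± 0.60 (adjusted p = 0.613). Iigp1, a GTPase of the same response, lay at 349.7, 168 and 345 TPM against 174, 609 and 402 TPM, with the highest value in triple therapy replicate 2. For 21 of the 26 genes the groups overlapped, often because UV2 anti-PD-1 replicate 2 was low or triple therapy replicate 2 was high. The called gene was Socs1, an inhibitor of cytokine signalling that the pathway induces as its own brake. It lay at 56.95, 47.1 and 90 TPM against 10.9, 26.2 and 24.6 TPM and differed by 1.64 ± 0.36 (adjusted p = 0.0347).

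The promoter window of Socs1 is printed because it was the called interferon gamma gene. The window runs from 250 bases before to 50 bases after the start, is taken from RefSeq, and lies on the minus strand of GRCm38.p6 at chr16:10785487-10785786. Capitals mark 2 overlapping matches to the core of an interferon-stimulated response element, searched as GAAANNGAA on both strands, which 8.56% of 32851 windows of this length hold. It holds no match to a gamma-activated site (TTCNNNGAA, in 8.3% of windows) or to an AP-1 site (TGANTCA, in 7.81%). A match is a description of letters and not of binding.
Socs1: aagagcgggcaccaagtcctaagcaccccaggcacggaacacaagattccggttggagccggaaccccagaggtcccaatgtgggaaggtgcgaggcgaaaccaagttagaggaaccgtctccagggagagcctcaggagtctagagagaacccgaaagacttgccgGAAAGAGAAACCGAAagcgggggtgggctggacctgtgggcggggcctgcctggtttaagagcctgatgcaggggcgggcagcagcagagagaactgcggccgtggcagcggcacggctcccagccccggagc

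Type I interferon genes gave 7 calls of 38 tested, all higher, 18.4% against 2.3% of all genes, with a median of 0.86. Ifi27l2a, a mitochondrial interferon-induced protein, lay at 449, 304 and 987 TPM in UV2 anti-PD-1 and 163, 90.5 and 87.6 TPM in triple therapy and differed by 2.22 ± 0.46 (adjusted p = 0.0305). Irf7, the factor that amplifies type I interferon, lay at 306, 179.9 and 713 TPM against 98.8, 108 and 69.8 TPM and differed by 1.90 ± 0.46 (adjusted p = 0.0437). In both genes UV2 anti-PD-1 replicate 3 was the highest library. Isg15, a ubiquitin-like protein, lay at 296, 217 and 734 TPM against 82.5, 186 and 129 TPM and missed the threshold (adjusted p = 0.0616). Ifit2 and Rsad2, antiviral effectors, overlapped, at differences of 0.33 ± 0.39 and 0.34 ± 0.37. The count of 7 fell to 0 without UV2 anti-PD-1 replicate 3 and without triple therapy replicate 2 or 3. All 7 called genes were also higher without overlap in UV2 isotype than in parental isotype. There Irf7 differed by 2.23 and Isg15 by 2.07. The summed level of the list was 2847 to 7423 TPM in UV2 anti-PD-1 and 1722 to 2381 TPM in triple therapy. It was 5122 to 8828 TPM in UV2 isotype and 1820 to 2302 TPM in parental isotype.

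Tlr7, the receptor for imiquimod, lay at 27.1, 12.2 and 21.9 TPM in UV2 anti-PD-1 and 28.8, 12.5 and 16.2 TPM in triple therapy, and the groups overlapped (difference 0.10 ± 0.37, adjusted p = 0.852). Of 26 genes of Toll-like receptor and MyD88 signalling 3 were called, all higher, which is 11.5% against 2.3% of all genes. The count fell to 0 without replicate 3 of either group or triple therapy replicate 2. Besides Irf7 the called genes were Unc93b1, the chaperone that takes nucleic acid receptors to the endosome (1.35 ± 0.34), and Nfkbia, the inhibitor of NF-kappaB (0.57 ± 0.15). MHC class I gave 1 call of 24, higher, which is 4.17% against 2.3% of all genes. It was Psme1, a subunit of the proteasome activator (1.18 ± 0.29, adjusted p = 0.0437). The list's median was 0.86, 14 of the 24 were higher without overlap against 11.5% of all genes, and 15 were higher at an unadjusted p under 0.05 against 9.64%. Median-of-ratios scaling gave 4 calls and quantile normalization 7. B2m, the light chain of class I, lay at 9856, 7983 and 13355 TPM against 4603, 8639 and 6589 TPM and overlapped through triple therapy replicate 2. Tap1, the peptide transporter, lay at 287, 175 and 363 TPM against 93.4, 172 and 135 TPM and missed the threshold (adjusted p = 0.0669).

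Of 25 macrophage and monocyte genes 4 were called higher and none lower, 16% against 2.3% of all genes, with a median of 0.33. Higher without overlap were 11 of the 25, 44% against 11.5% of all genes, and 2 were lower without overlap, 8% against 32.8%. The summed level of the list was 26302 to 28176 TPM in UV2 anti-PD-1 and 9655 to 17406 TPM in triple therapy. The 4 calls fell to 0 without replicate 3 of either group or triple therapy replicate 2. The complement component C1q, made by tissue macrophages, was higher in all 3 of its chains. C1qa lay at 3184, 2954 and 5095 TPM in UV2 anti-PD-1 and 1207, 1074 and 1165 TPM in triple therapy and differed by 1.66 ± 0.36 (adjusted p = 0.0333), with 1.36 ± 0.30 for C1qb and 1.55 ± 0.31 for C1qc. Ly6c2, a marker of inflammatory monocytes, lay at 236, 133 and 599 TPM against 36.8, 51.4 and 42.9 TPM and differed by 2.59 ± 0.60 (adjusted p = 0.0383). It is also one of the genes that separated the lines in the isotype libraries. The general macrophage markers Cd68 and Csf1r overlapped between the groups. Cd68 lay at 452, 331 and 279 TPM against 577, 306 and 333 TPM. Csf1r, the receptor for the macrophage growth factor, lay at 433, 313 and 233 TPM against 294, 135 and 187 TPM. Arg1 and Nos2, enzymes that split arginine use between macrophage states, had differences of -1.29 ± 0.92 and -1.63 ± 0.44 and were not called. The B and plasma cell list gave 0 calls of 7 tested by limma. At an unadjusted p under 0.05, 1 of the 7 was lower, against 31.2% of all genes, and none was higher. Yet 3 of the 7 were higher without overlap, 42.9% against 11.5% of all genes, and none was lower without overlap. The list median was 0.55.

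A mast cell protease was among the largest differences. Mcpt2, a chymase of mucosal mast cells, lay at 109, 83.4 and 58.2 TPM in UV2 anti-PD-1 and 5.56, 2.49 and 11.03 TPM in triple therapy and differed by 3.65 ± 0.53 (adjusted p = 0.00959), a call kept in all 6 leave-one-out fits. Its UV2 isotype values of 60.2, 105 and 77.8 TPM and parental isotype values of 34.2, 23.1 and 46.8 TPM both lay above the triple therapy values. In the mast cell list, which does not hold Mcpt2, 1 of 10 genes was called, 10% against 2.3% of all genes. It was the tryptase Tpsb2 (2.07 ± 0.45, adjusted p = 0.0326). Cpa3, the mast cell carboxypeptidase, overlapped at a difference of 1.05 ± 0.45.

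Enzymes of cholesterol synthesis had the largest share called lower among the 52 lists. Of 24 genes tested, 15 were called lower in UV2 anti-PD-1 and none higher, against 1.77% of all genes, and 21 of the 24 did not overlap, against 32.8% of all genes. The list median was -1.42 as deposited and -1.10 after median-of-ratios scaling. The pathway starts from acetyl-CoA, passes through mevalonate, joins isoprenoid units into squalene and closes the sterol ring, and its genes are switched on together by Srebf2 when a cell's membranes are short of sterol. At its head Hmgcs1, the synthase that makes HMG-CoA, lay at 32.6, 35.5 and 31.1 TPM in UV2 anti-PD-1 and 93.8, 135 and 95.3 TPM in triple therapy and differed by -1.66 ± 0.24 (adjusted p = 0.00959). No triple therapy library reached down to the UV2 anti-PD-1 values.

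The middle and the end of the pathway were alike in direction. Idi1, which isomerises the isoprenoid unit, lay at 17.1, 20.4 and 18.5 TPM against 55.5, 95.9 and 62.8 TPM and differed by -1.84 ± 0.23 (adjusted p = 0.00453). Sqle, the epoxidase that commits squalene to sterol, lay at 21.03, 23.3 and 16.3 TPM against 59.3, 87.02 and 64.4 TPM and differed by -1.74 ± 0.21 (adjusted p = 0.00453). Cyp51 (ENSMUSG00000001467.5, GRCm38 chromosome 5, 4081145 to 4104746, minus strand), the lanosterol demethylase, lay at 13.4, 17.9 and 13.4 TPM against 39.97, 62.8 and 47.3 TPM and differed by -1.67 ± 0.20 (adjusted p = 0.00453). The spread within the UV2 anti-PD-1 group was small in these enzymes, and the triple therapy values exceeded them in every library. Sc4mol, listed under its older symbol for Msmo1, the sterol methyl oxidase, differed by -1.40 ± 0.20. Hmgcs1, Idi1, Sqle, Cyp51 and Sc4mol kept the call in all 6 leave-one-out fits, and the list held between 6 calls, without UV2 anti-PD-1 replicate 3, and 18, without replicate 1 of either group.

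Genes around the enzymes missed the threshold by little. Srebf2 lay at 44.7, 33.7 and 24.3 TPM against 57.7, 88.3 and 72.8 TPM with a difference of -1.09 ± 0.29 (adjusted p = 0.0518), and Insig1, which holds the Srebf2 protein back, gave -1.23 ± 0.32 (adjusted p = 0.051). Ebp, the sterol isomerase, was the 1 gene of the list with a positive difference, at 66.8, 70.2 and 70.2 TPM against 74.8, 60.5 and 67.3 TPM. Stard4, a carrier of cholesterol inside the cell, was called at -2.05 ± 0.39.

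The isotype libraries placed these genes on the triple therapy side. Cyp51 lay at 45.4, 40.6 and 35.3 TPM in the UV2 isotype libraries and 82.4, 71.7 and 52.1 TPM in the parental isotype libraries, all above the UV2 anti-PD-1 values. For all 15 called sterol genes both isotype means were nearer to the triple therapy mean than to the UV2 anti-PD-1 mean, a pattern that 33.8% of all genes tested showed. The summed level of the list was 534 to 623 TPM in UV2 anti-PD-1, 1143 to 1864 TPM in triple therapy, 1147 to 1619 TPM in UV2 isotype and 1447 to 2165 TPM in parental isotype.

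**Figure D4:**
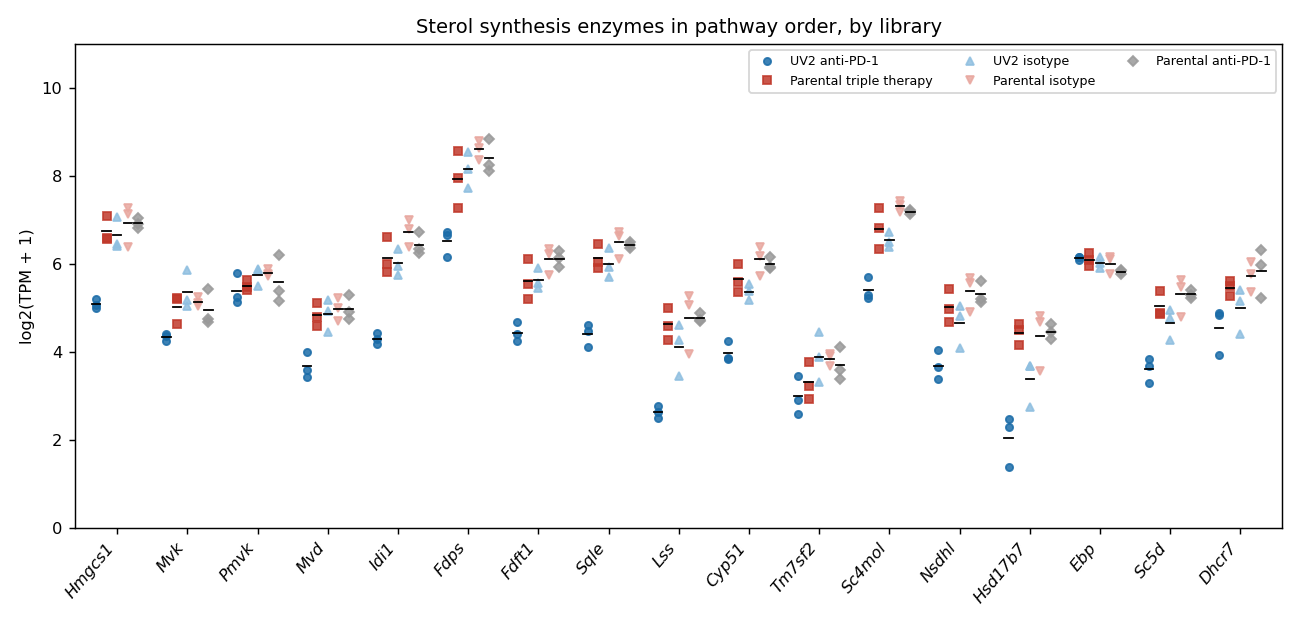
Level of sterol synthesis genes, in pathway order and without those not reported here, (vertical axis, log2(TPM + 1)) in each of the 15 libraries, with 1 point per library. Hmgcs1 lies at 32.6, 35.5 and 31.1 TPM in UV2 anti-PD-1 and at 93.9, 135 and 95.3 TPM in triple therapy, and the isotype points lie with triple therapy.

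Promoter windows of a pathway that moved together are shown for Hmgcs1, on the plus strand of GRCm38.p6 at chr13:119690101-119690400, and Cyp51, on the minus strand at chr5:4104648-4104947. They are RefSeq windows of the same extent as above. The letters TCACNCCAC, a form of the sterol regulatory element that Srebf2 binds, were searched on both strands after the values had been seen, and 1.24% of all windows hold them. Of the 15 called sterol genes 9 had a window, and 1 of the 9, Hmgcs1, held a match, which is in capitals. The Cyp51 window holds none, which says only that these letters are not in it.
Hmgcs1: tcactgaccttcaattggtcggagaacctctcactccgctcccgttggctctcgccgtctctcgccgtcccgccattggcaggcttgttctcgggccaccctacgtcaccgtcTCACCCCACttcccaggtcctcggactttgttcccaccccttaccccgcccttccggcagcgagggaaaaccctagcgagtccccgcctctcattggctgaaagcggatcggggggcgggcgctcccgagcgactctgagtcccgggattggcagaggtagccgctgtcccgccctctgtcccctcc
Cyp51: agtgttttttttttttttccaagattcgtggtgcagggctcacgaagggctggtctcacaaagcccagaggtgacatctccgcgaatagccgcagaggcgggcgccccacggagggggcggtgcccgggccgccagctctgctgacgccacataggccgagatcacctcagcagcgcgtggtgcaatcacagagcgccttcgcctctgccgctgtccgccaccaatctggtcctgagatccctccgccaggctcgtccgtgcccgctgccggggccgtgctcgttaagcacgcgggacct

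Keratins of the skin made up the largest differences of all. Outside triple therapy at most 1 of the 12 other libraries of the series reached 1 TPM of Krt5, Krt14, Krt6a, Krt6b or Krt16, so these genes entered the test only through the group where they are high, and their differences are given as a description without a p. Krt16 (ENSMUSG00000053797.10, GRCm38 chromosome 11, 100246091 to 100248902, minus strand), a keratin of wounded and inflamed epidermis, lay at 0.08, 0.07 and 1.03 TPM in UV2 anti-PD-1 and 5730.0, 33.7 and 389 TPM in triple therapy and differed by -8.33 ± 1.21. Krt6a, its partner, lay at 0.12, 0.09 and 3.32 TPM against 6054, 41.02 and 419.6 TPM and differed by -8.09 ± 1.23. Every triple therapy library held them and the UV2 anti-PD-1 libraries held next to none, yet within triple therapy replicate 1 exceeded replicate 2 many times over. Krt6b is a near-identical copy of Krt6a, and how reads were divided between them is uncertain. Krt14, the keratin of basal keratinocytes, lay at 0, 0 and 69.5 TPM against 11620.4, 85.7 and 845 TPM and differed by -7.84 ± 1.62. Krt5, its partner, lay at 0, 0.10 and 50.2 TPM against 2258, 22.6 and 207 TPM, and it was the only called gene whose groups overlapped, because UV2 anti-PD-1 replicate 3 exceeded triple therapy replicate 2.

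Krt10 and Krt15, keratins of intact epidermis, overlapped between the groups through UV2 anti-PD-1 replicate 3 alone. In replicates 1 and 2 both lay below every triple therapy library, as the wound keratins did. Krt10, of differentiating keratinocytes, lay at 2.19, 2.55 and 115 TPM against 672, 4.12 and 22.4 TPM, so that UV2 anti-PD-1 replicate 3 exceeded triple therapy replicates 2 and 3, and the difference of -1.98 ± 1.5 was not called (adjusted p = 0.32). Krt15, of resting basal cells, lay at 0, 0 and 43.2 TPM against 46.6, 0.14 and 3.66 TPM. UV2 anti-PD-1 replicate 3 thus held Krt5, Krt14, Krt10 and Krt15 but Krt16 at 1.03 TPM. The summed keratin level was 9.09 to 512 TPM in UV2 anti-PD-1, 238 to 36915 TPM in triple therapy, 4.88 to 11.6 TPM in UV2 isotype and 6.32 to 8.06 TPM in parental isotype. Of the 16 keratin genes 13 passed the filter, most only through the few libraries that held keratins, so their 5 calls support nothing further. How much skin each piece of tumor carried was not tested.

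Envelope proteins of the outer skin had the same limit, since at most 1 library outside triple therapy reached 1 TPM of Sprr1b, Sprr2d, Sprr2a1 or Stfa1, and they too are described without a p. Sprr1b, a cross-linked precursor that wounded skin makes, was listed at 0 in all 3 UV2 anti-PD-1 libraries and at 947, 5.99 and 73.4 TPM in triple therapy. Sprr2d lay at 0, 0 and 0.19 TPM against 305, 1.47 and 30.5 TPM. Sprr2a1 and Sprr2a2 carry identical values and were read as 1 measurement. Lor, which makes up the envelope of intact skin, lay at 0.07, 0 and 26.5 TPM against 70.2, 0 and 3.67 TPM, and the groups overlapped. Stfa1, a cysteine protease inhibitor of skin and neutrophils with near-identical copies, lay at 0, 0 and 1.32 TPM against 745, 3.85 and 61.7 TPM.

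Of 18 neutrophil genes tested 1 was called, lower in UV2 anti-PD-1, which is 5.56% against 1.77% of all genes. Lower without overlap were 4 of the 18, 22.2% against 32.8% of all genes. S100a8, the calprotectin subunit of neutrophils and wounded keratinocytes, lay at 23.9, 79.2 and 14.6 TPM in UV2 anti-PD-1 and 1618, 46.4 and 220.2 TPM in triple therapy. Triple therapy replicate 1 stood far above the rest and replicate 2 lay below UV2 anti-PD-1 replicate 2, and the difference of -3.03 ± 1.19 was not called (adjusted p = 0.0853). S100a9 moved with it. Mmp8, the neutrophil collagenase, was the called gene, at 0.80, 1.60 and 0.44 TPM against 22.9, 7.37 and 6.22 TPM (-2.58 ± 0.50, adjusted p = 0.0281), and it lost the call without replicate 3 of either group. Of 16 neutrophil chemokines and acute cytokines 0 were called by limma, while 1 was higher and 7 were lower at an unadjusted p under 0.05. Over all genes these shares were 9.64% higher and 31.2% lower. Cxcl2, which draws neutrophils, lay at 1.46, 3.14 and 0.23 TPM against 90.6, 2.44 and 5.62 TPM, and Il1b, the inflammasome cytokine, at 78.2, 121 and 38.7 TPM against 154, 52.4 and 68.7 TPM.

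Stress and growth factor genes gave a few further calls. Cdkn1a, the cell cycle inhibitor p21 that p53 induces, was lower in UV2 anti-PD-1, at 124, 132 and 105 TPM against 213, 245 and 219.5 TPM, and differed by -0.91 ± 0.17 (adjusted p = 0.0241). Fgf7, the growth factor that fibroblasts send to keratinocytes, lay at 21.9, 32.4 and 14.3 TPM against 48.2, 40.2 and 47.3 TPM and differed by -1.02 ± 0.25 (adjusted p = 0.0437). For both genes the groups did not overlap. Nt5e, the ectoenzyme CD73 that makes immunosuppressive adenosine, was lower (-2.25 ± 0.57, adjusted p = 0.0463), while Adora2a, the adenosine receptor of T cells, was higher (1.29 ± 0.31, adjusted p = 0.041). Ptgs2, which makes prostaglandins, lay at 36.7, 38.3 and 6.74 TPM against 50.3, 223 and 299 TPM. Its groups did not overlap, but the difference of -2.74 ± 0.82 was not called (adjusted p = 0.0586). The isotype libraries did not overlap either, at 4.81, 9.53 and 20.5 TPM in UV2 and 246, 148 and 198 TPM in parental tumors.

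Several programs gave no call by limma. In the cell division list 0 of 30 genes were called, with a median of -0.56, although 17 were lower at an unadjusted p under 0.05, against 31.2% of all genes. In the fibroblast and collagen list 0 of 24 were called, with a median of -0.84, and 10 were lower at an unadjusted p under 0.05, against 31.2% of all genes. The summed level of the skeletal muscle list was 42.8 to 1429.9 TPM in UV2 anti-PD-1 and 282 to 1343 TPM in triple therapy, and that of the erythrocyte list 73.5 to 1883 TPM and 379 to 1031 TPM. Col1a1, the main fibrillar collagen, lay at 1932, 2899.5 and 527 TPM in UV2 anti-PD-1 and 8288, 1559.8 and 3387 TPM in triple therapy, with overlap. Braf, a driver of melanoma, had a difference of -0.84 ± 0.33 and was not called (adjusted p = 0.0881). Spp1, the abundant matrix protein osteopontin, lay at 12015, 8974 and 13824 TPM against 3675, 33894 and 16922 TPM. The ribosomal protein list did hold calls: of 69 genes 5 were called higher, 7.25% against 2.3% of all genes. Higher without overlap were 53 of the 69, 76.8% against 11.5% of all genes. At an unadjusted p under 0.05, 37 of the 69 were higher, against 9.64% of all genes. The list median of 0.38 became 0.71 after median-of-ratios scaling and 0.09 after quantile normalization.

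Genes that separate the cell lines gave the smallest p of the comparison. Xlr (ENSMUSG00000054626.11, GRCm38 chromosome X, 53777118 to 53797706, minus strand), a lymphocyte-regulated gene of the X chromosome, lay at 23.5, 27.97 and 29.6 TPM in UV2 anti-PD-1 and 3.38, 4.91 and 3.65 TPM in triple therapy and differed by 2.50 ± 0.25 (adjusted p = 0.002). In the isotype libraries it lay at 52.5, 47.99 and 33.2 TPM in UV2 and 2.06, 1.82 and 2.42 TPM in parental tumors. Ddx3y, a gene of the Y chromosome that the female hosts lack, was listed at 0 in all UV2 anti-PD-1 libraries and at 0.55, 9.92 and 4.50 TPM in triple therapy. It was listed at 0 in all UV2 isotype libraries and at 11.6, 9.56 and 7.55 TPM in parental isotype. Akr1c18, a steroid dehydrogenase on the list of line genes, lay at 6.87, 10.3 and 1.28 TPM against 15.5, 69.4 and 120.3 TPM and was called lower (-3.15 ± 0.76, adjusted p = 0.0431). In Ddx3y and Akr1c18 triple therapy replicate 1 was the lowest of its group, and in Ddx3y it lay below every parental isotype library. How much of each library came from the graft was not tested. The 17 line genes were chosen on the isotype libraries of these data, and 5 were called higher and 1 lower.

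The isotype libraries, which enter the comparison through the filter and the shared estimate of spread, give the same genes between the lines under control antibody. Of the 553 called genes 537, or 97.1%, had the same sign in UV2 isotype against parental isotype, beside 76.0% of all genes tested. By direction it was 98.7% of genes called higher, beside 85.4% of all genes with a difference above 0. Among genes called lower it was 95.0%, beside 71.9% of all genes below 0. In 254 of the 553 called genes, 45.9%, the isotype libraries did not overlap in the direction of the call, beside 17.2% of all genes. For 257 of the 312 genes called higher, 82.4%, the UV2 isotype mean was nearer to UV2 anti-PD-1 and the parental isotype mean nearer to triple therapy, beside 35.0% of all genes. This placement by nearest mean held for all 14 called T cell genes, all 7 class II genes and all 7 inhibitory receptors. Yet the isotype libraries themselves overlapped for all 14 T cell genes and all 7 inhibitory receptors, and only 2 of the 7 class II genes were apart. All 7 called type I interferon genes were apart. Over all genes called higher, 155 of 312, 49.7%, were apart in the isotype libraries, beside 28.3% of all genes with a difference above 0. Over all genes called lower, 99 of 241, 41.1%, were apart, beside 12.4% of all genes below 0. Of the 241 genes called lower, 142 had the same placement, 58.9% beside 35.0% of all genes. Both isotype means lay near triple therapy for 55, the sterol genes among them, which is 22.8% beside 33.8% of all genes. Both lay near UV2 anti-PD-1 for 43, which is 17.8% beside 25.7% of all genes. All 5 called keratins and all 4 called envelope genes were among these 43. The keratins, Sprr1b, Sprr2d and Sprr2a1 entered the test only through triple therapy, so their placement was fixed in advance.

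**Figure D5:**
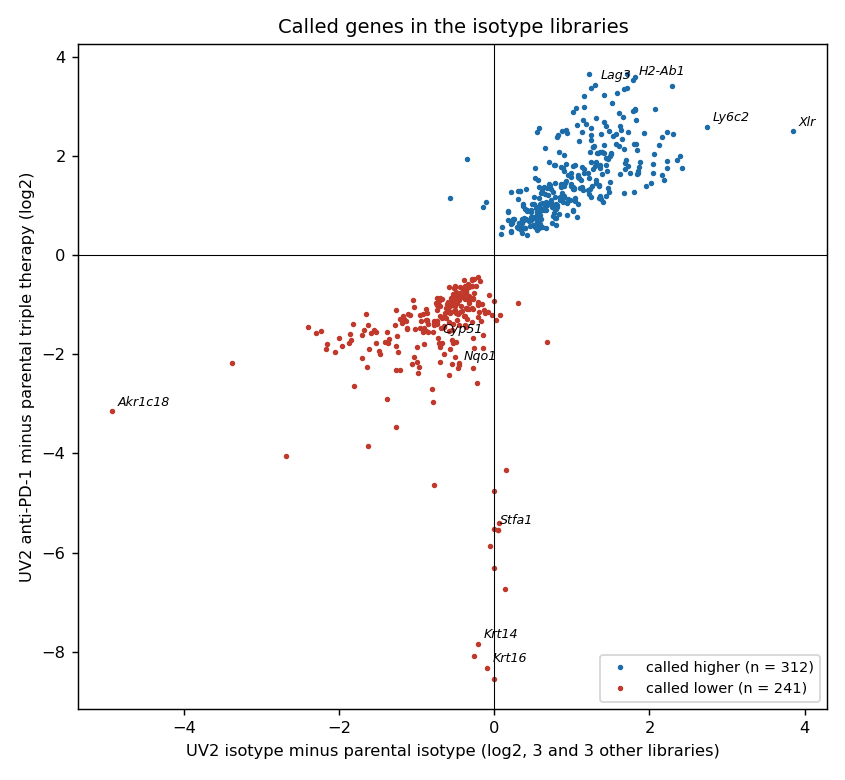
Each called gene by its difference between UV2 isotype and parental isotype (horizontal axis, log2) and between UV2 anti-PD-1 and triple therapy (vertical axis, log2). Of 553 genes 537 lie on the same side of 0 on both axes. The wound keratins lie near 0 on the horizontal axis and far below 0 on the vertical axis. Both isotype groups held next to none of them, so their horizontal position was fixed.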

How the data were processed

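Bulk RNA of melanoma grafts was deposited as 1 table of TPM values per gene symbol, computed by the authors with Bowtie2 and RSEM on mm10 and GRCm38, per the submitters' processing notes, which give no versions here. The table holds 23420 genes in 15 columns, all of which were used. TPM keeps no read depth, so no counting interval is given, and a value listed at 0 can be a failed estimate. Samples were grouped by their labels.

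From the TPM values, log2(TPM + 1) was computed for the 13592 genes that reached 1 TPM in 3 libraries or more. One limma 3.58.1 model in R 4.3.3 (lmFit, contrasts.fit, eBayes with trend and robust set) had a coefficient for each of the 5 groups and 10 residual degrees of freedom. P-values are two-sided with Benjamini-Hochberg adjustment over all genes tested. The procedure was tested on simulated data. Positions, for 93.7% of genes tested, come from GENCODE M21 on GRCm38, and promoter windows from RefSeq.

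The groups, the 52 gene lists and the tests were chosen with earlier results of these data known. Named are the 10 highest and 10 lowest differences among called genes whose groups do not overlap and whose mean reaches 5 TPM in the higher group, leaving out predicted genes and receptor segments, then a set of listed immune, skin and melanoma genes, and up to 4 called members of each list. Other genes were named after their values were seen. Lists are described by counts and medians. Alternatives changed the pseudocount, the filter, the scaling, the libraries fitted, the replicate block, library weights and the robust setting, and left out each library. Some genes are not reported here.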

Additional observations from a re-analysis of the deposited data

How the results depend on the processing

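The count of 553 called genes (312 higher and 241 lower) moved with most settings. Its size is less firm than the direction of the called genes that were followed through these settings. Those followed were the 10 highest and 10 lowest differences, the set of listed immune, skin and melanoma genes, and leading members of each list. Other genes named in the text, Cd3g and Lat among them, were not followed. It was 291 (185 higher, 106 lower) with no filter on low values, 1321 (910 higher, 411 lower) with median-of-ratios scaling, 1707 (1088 higher, 619 lower) with quantile normalization, and 261 (188 higher, 73 lower) with the 6 compared libraries alone. With the epidermal and muscle lists removed 413 genes were lower. Library weights gave 9825 calls (2605 higher, 7220 lower), but their estimation stopped before it converged. Leaving out 1 library gave 27 to 1974 calls, 13 to 448 of them higher and 14 to 1526 lower, and fewest without UV2 anti-PD-1 replicate 3 (27) or triple therapy replicate 3 (30). The share of called genes with the same sign in the isotype libraries was 97.1%, and it was 94.5% with no filter and 98.6% with a TPM minimum of 5. The difference of Il1b, not called at -0.20, became 0.62 under library weights (adjusted p = 0.0483). No other gene followed changed sign past a threshold under the settings run. Over the genes followed and all settings together, 1870 values kept their side of the threshold, 409 lost the call and 81 gained it. The 1870 include uncalled values whose sign may have changed. The causes of these shifts were not tested.

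A fit with the replicate number as a block gave 194 calls (127 higher, 67 lower). Replicate numbers did not pair the libraries: the correlations of same-numbered deviations from the group means were -0.24, -0.06 and -0.14. What depth limits cannot be stated, because TPM values keep no depth.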

Other observations

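Many called genes stood in none of the 52 lists, 425 of 553, and those given here were picked after their values were seen. On the UV2 anti-PD-1 side Ptprcap, a partner of the lymphocyte phosphatase CD45, lay at 75.1, 62.6 and 105 TPM against 5.16, 6.95 and 7.67 TPM in triple therapy and differed by 3.41 ± 0.61 (adjusted p = 0.0207). Ltb, which encodes lymphotoxin beta, a cytokine that organises lymphoid tissue, lay at 62.01, 54.4 and 60.2 TPM against 7.33, 4.83 and 8.98 TPM and differed by 2.93 ± 0.59 (adjusted p = 0.0283). Sh2d1a, the adaptor SAP of T and NK cells, differed by 2.47 ± 0.57, and Gimap7 and Gimap3, GTPases of lymphocyte survival, by 2.92 ± 0.59 and 2.61 ± 0.55. All of these are lymphocyte genes, and all of their groups were apart. Id2, a transcriptional inhibitor of innate lymphoid, dendritic and effector T cells, lay at 193, 178 and 225 TPM against 89.2, 101 and 98.03 TPM, and its difference of 1.04 ± 0.15 (adjusted p = 0.00959) kept its call whichever of the 6 libraries was left out.

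On the triple therapy side Nqo1, a quinone reductase that the oxidative stress factor Nrf2 induces, lay at 6.48, 5.90 and 4.83 TPM in UV2 anti-PD-1 and 28.9, 36.1 and 26 TPM in triple therapy and differed by -2.21 ± 0.26 (adjusted p = 0.00453). Its isotype values were 16.6, 6.83 and 10.4 TPM in UV2 and 15.2, 17.1 and 12.9 TPM in parental tumors, below every triple therapy library. Angpt2, a ligand that loosens blood vessels, lay at 7.87, 6.89 and 5.54 TPM against 21.8, 17.6 and 17.9 TPM and differed by -1.37 ± 0.19 (adjusted p = 0.00959). Its isotype values of 5.55, 5.66 and 8.21 TPM in UV2 and 16.2, 17.7 and 14.04 TPM in parental tumors did not overlap. Nqo1 and Angpt2 also kept their call in all 6 leave-one-out fits. Gjb2, the gap junction protein connexin 26 of wounded epidermis, lay at 0.22, 0.04 and 0.15 TPM against 519, 3.47 and 45.7 TPM. It was under 1 TPM in all 12 libraries outside triple therapy and entered the test only through that group, so no p is given. Col7a1, the anchoring fibril that ties epidermis to dermis, lay at 4.11, 10.5 and 6.47 TPM against 81.6, 31.2 and 43.9 TPM (adjusted p = 0.0326). Both were highest in triple therapy replicate 1, the library with the most keratin.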
